A study of Ovis aries with 12 samples.

Results

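In all, 10 genes of the oxygen-sensing pathway of hypoxia-inducible factor (HIF) were followed across 12 RNA sequencing libraries of Tan sheep (Ovis aries). They were taken by symbol from the 21257 genes of the deposited table, and all 10 were found: HIF1A, EPAS1, ARNT, EGLN1, EGLN2, EGLN3, HIF1AN, VHL, VEGFA and BNIP3. All 10 also passed the filter on low values, at least 1 FPKM (fragments scaled to gene length and to the total of the library) in at least 3 libraries, as did 12095 genes in all. The sheep were 5 months old and every animal received the basal diet. Each of 4 groups had 3 libraries: the control received nothing else, and succinate was added at 0.5%, 1% or 2% in the others. The trial held 36 sheep in individual pens, 9 per diet. It is not stated that the libraries of a group come from different sheep, so p-values measure only the spread between these samples, which may be technical.

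As background, HIF is a pair of an alpha subunit (HIF1A or EPAS1, also called HIF-2 alpha) and the constitutive beta subunit ARNT. In the presence of oxygen, the prolyl hydroxylases EGLN1, EGLN2 and EGLN3 modify the alpha subunit, the VHL protein recognises the modified form, and the alpha subunit is degraded; HIF1AN, an asparaginyl hydroxylase, blocks its recruitment of co-activators. These enzymes use 2-oxoglutarate and release succinate, which inhibits them as a product. VEGFA, a growth factor of blood vessels, and BNIP3, a protein of mitochondrial turnover and cell death, are among the genes that HIF activates. Much of this control acts on the stability and activity of the alpha proteins, which messenger RNA levels do not measure.

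Depth ran from 15489883 to 18717309 reads assigned to genes per library. No tissue is given in the labels; rumen epithelial cells appear in the title of the series. Markers of stratified epithelium were scarce: of 11 in the table, KRT5, KRT15, KRT4, TP63, IVL and DSG3 were at 0 in all 12 libraries, and only 1 marker passed the filter. All 15 smooth muscle markers passed, with a summed level of 35994 to 63489 FPKM, so the levels below describe libraries rich in smooth muscle RNA. The sum was 36034 to 40676 in the control and 48686 to 63489 at 0.5%, without overlap. It was 36933 to 49636 at 1% and 35994 to 44609 at 2%, both overlapping the control. At 0.5% 12 of the 15 markers were higher than in the control and 3 lower, none with an adjusted p under 0.05 in limma. The part of this higher sum in the 0.5% levels of other genes was not tested. In bulk RNA, fewer cells of a type and less RNA per cell cannot be told apart. Replicates 2 and 3 of the 1% diet stood apart from the other libraries: in them longer genes were higher relative to their mean over the libraries (Spearman's rho across genes 0.577 and 0.433). Replicate 2 of the 0.5% diet had the opposite relation (rho -0.633).

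None of the 10 genes passed the test in any comparison with the control. No gene of the whole table did either: limma called 0 of 12095 genes at an adjusted p under 0.05 (0% in the comparison of each dose, in the slope on succinate percent and in the test of any difference among diets), and limma-voom on reads recovered from the FPKM also called 0. Without adjustment, limma gave a p under 0.05 for 562 genes at 0.5% (4.65%), 2346 at 1% (19.4%) and 383 at 2% (3.17%). VHL and VEGFA were the 2 members with an unadjusted p under 0.05 against the control, VHL lower at 1%, like 12.1% of tested genes, and VEGFA higher at 2%, like 1.57%. Both were also among the 12.6% of tested genes with an unadjusted p under 0.05 in the test of any difference among diets. The 3 doses share the same control libraries, so their differences are not independent of each other.

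**Figure D1:**
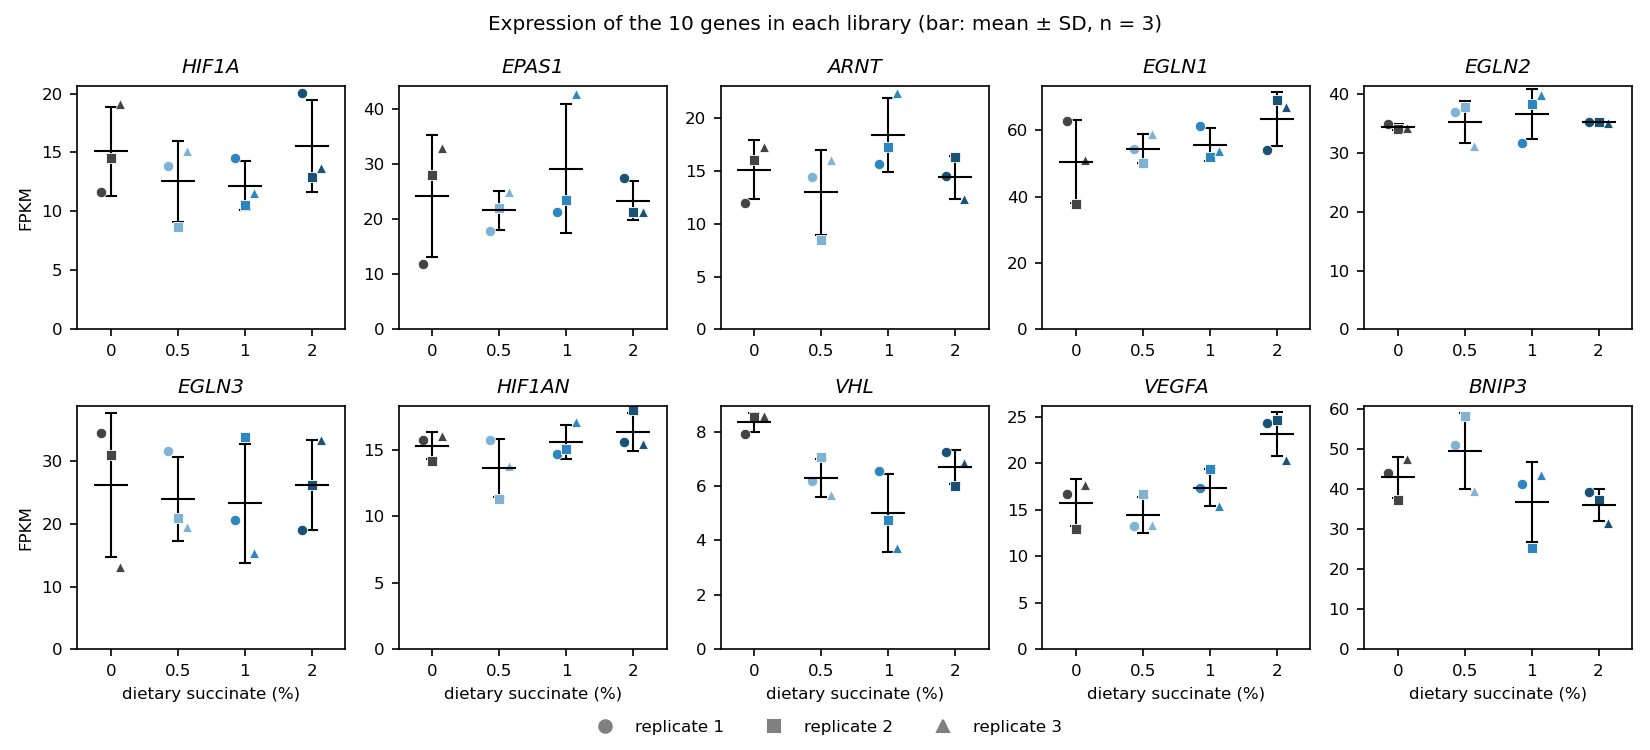
FPKM of each of the 10 genes (vertical axes from 0) by dietary succinate in percent; points are single libraries, marked by replicate, with the mean and SD of 3. VHL is at 7.26 FPKM or lower in all 9 succinate libraries and at 7.93 or higher in the 3 controls, and VEGFA is at 20.4 FPKM or more only in the 2% libraries.

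By level, averaged over the 12 libraries, EGLN1 came first at 56.1 ± 8.54 FPKM (SD, n = 12), a level above that of 91.3% of tested genes. BNIP3 followed at 41.2 ± 8.66, EGLN2 at 35.4 ± 2.53, EGLN3 at 25.0 ± 7.73 and EPAS1 at 24.5 ± 7.76. The lower part of the order was VEGFA at 17.7 ± 3.95, ARNT at 15.2 ± 3.42, HIF1AN at 15.2 ± 1.68, HIF1A at 13.8 ± 3.28 and VHL at 6.58 ± 1.45. Only 2 steps of this order exceeded the spread over libraries, EGLN2 over EGLN3 and HIF1A over VHL, each seen in 12 of 12 libraries. EGLN3 and EPAS1 had no fixed order, with EGLN3 higher in 6 of 12 libraries, and neither had ARNT and HIF1AN, with ARNT higher in 6 of 12.

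The alpha subunits showed no shift with diet beyond the spread of the libraries. HIF1A lies on chromosome 7 (71911013 to 71957792, plus strand; positions here are the deposited file's). It measured 11.6, 14.5 and 19.1 FPKM in control replicates 1 to 3, and 13.9, 8.66 and 15.1 with 0.5% succinate. With 1% succinate it measured 14.5, 10.5 and 11.5, and with 2% it measured 20.1, 12.9 and 13.7. Every succinate group overlapped the control range. The log2 difference from the control, on the log2(FPKM + 1) scale used throughout, was -0.26 (SE 0.24) at 0.5%, -0.27 (SE 0.24) at 1% and 0.04 (SE 0.24) at 2%, with adjusted p of 0.890, 0.527 and 0.999 in limma. The 95% interval at 2% reached 0.57 upward, so a rise of that size was not excluded by these libraries. With 1 library left out at a time, the HIF1A difference at 0.5% ran from -0.42 to -0.03.

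EPAS1, the alpha subunit known for its high level in vascular endothelium, lies on chromosome 3 (77961837 to 78055607, minus strand). Its control libraries spanned 11.8, 28.0 and 32.9 FPKM, and the 0.5% libraries 17.8, 22.0 and 24.8. The 1% libraries measured 21.3, 23.4 and 42.5 and the 2% libraries 27.4, 21.2 and 21.2. Control replicate 1 was the lowest of all 12 and replicate 3 of the 1% diet the highest, and every succinate group lay within or across the control range. The differences were -0.06, 0.31 and 0.05 (SE 0.34 each), with adjusted p of 0.981, 0.619 and 0.999 in limma, and their sign changed in 8, 2 and 5 of 25 alternative settings. Summed endothelial markers, 13 of 13 tested, were also low in control replicate 1, at 86.2 FPKM against 177 and 180 in the other controls. They ran from 76.2 to 178 with 0.5%, 99.8 to 141 with 1% and 98.2 to 191 with 2% succinate; their part in the EPAS1 levels was not tested.

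EPAS1 stood at or above HIF1A per gene length in all 12 libraries. The ratio of their FPKM ran from 1.01 in control replicate 1 to 3.69 in replicate 3 of the 1% diet. Group means were 1.55 ± 0.478 in the control, 1.82 ± 0.653 at 0.5%, 2.46 ± 1.13 at 1% and 1.52 ± 0.142 at 2% (SD, n = 3). These ranges overlapped, and the highest value belonged to a library that stood apart in its relation to gene length.

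ARNT, the beta subunit shared by both alpha subunits, lies on chromosome 1 (100772050 to 100808082, minus strand). It measured 11.99, 16.05 and 17.3 FPKM in the controls and 14.4, 8.43 and 16.1 with 0.5% succinate. With 1% it measured 15.6, 17.3 and 22.4, and with 2% it measured 14.5, 16.3 and 12.3. All 3 succinate groups overlapped the control, and the differences of -0.24, 0.27 and -0.06 (SE 0.23 each) had adjusted p of 0.890, 0.511 and 0.999 in limma. Replicate 2 of the 0.5% diet was the lowest library. With 1 library left out at a time, the ARNT difference at 0.5% ran from -0.40 to 0.02. The summed FPKM of HIF1A and EPAS1 was 1.95 to 3.64 times that of ARNT over the 12 libraries.

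The prolyl hydroxylases differed from each other in how much they varied. EGLN1, the main oxygen sensor among the 3 in most cells, lies on chromosome 25 (3492162 to 3541578, minus strand). Control libraries gave 62.8, 37.7 and 51.2 FPKM, and 0.5% libraries 54.5, 50.1 and 58.8. The 1% libraries gave 61.3, 52.0 and 53.9 and the 2% libraries 54.1, 69.2 and 67.2. Replicates 2 and 3 of the 2% diet exceeded every control, and replicate 1 did not. At 1% the groups overlapped except under quantile normalization, where the 1% libraries were higher. In FPKM 7.14% of tested genes were higher at 1% without overlap, and the share under quantile normalization was not counted. The difference at 2% was 0.34 (SE 0.19, 95% interval -0.06 to 0.75) with an adjusted p of 0.999 in limma. It was 0.15 without control replicate 2, the lowest library, and 0.51 without control replicate 1.

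EGLN2 lies on chromosome 14 (49456508 to 49465652, plus strand) and was the steadiest of the 10. It measured 35.0, 34.2 and 34.2 FPKM in the controls, 36.95, 37.8 and 31.2 with 0.5%, 31.8, 38.3 and 39.9 with 1%, and 35.2, 35.3 and 35.1 with 2% succinate. Only 0.554% of tested genes had a smaller SD over the 12 libraries. The differences were 0.03, 0.08 and 0.03 (SE 0.14 each), and the 95% intervals allowed rises of up to 0.33, 0.38 and 0.33. At 2% its libraries sat just above the controls without overlap in FPKM, which 7.43% of tested genes also did; with TMM scaling (trimmed mean of M-values) the groups overlapped.

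EGLN3, itself known as a target of HIF, lies on chromosome 18 (42145833 to 42175275, minus strand). By SD on the log2(FPKM + 1) scale it was the most variable of the 10. In FPKM its SD was 31.0% of the mean, just under the 31.7% of EPAS1. The EGLN3 control libraries spanned 34.5, 31.0 and 13.2 FPKM and the 0.5% libraries 31.7, 21.0 and 19.4. With 1% it measured 20.6, 33.8 and 15.4, and with 2% it measured 19.1, 26.2 and 33.5. Low and high libraries occurred in every diet, and the SD over 12 libraries exceeded that of 85.2% of tested genes. The differences of -0.04, -0.13 and 0.08 (SE 0.36 each) had adjusted p of 0.985, 0.867 and 0.999 in limma; the 95% interval at 2% reached 0.87, so a sizeable rise could not be detected at this spread.

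Of the summed FPKM of the 3 prolyl hydroxylases, EGLN1 held 48.1% ± 5.22, EGLN2 30.7% ± 3.62 and EGLN3 21.2% ± 5.43 (SD, n = 12). EGLN1 held the largest share in all 12 libraries, from 36.7% to 53.9%. EGLN3 ranged most in relative terms, from 13.3% to 30.1%. The mean EGLN1 share was 45.4% ± 7.86 in the control, 48.0% ± 5.03 at 0.5%, 48.4% ± 6.08 at 1% and 50.8% ± 1.88 at 2%, with overlapping ranges. The summed hydroxylase level was 1.90 to 5.65 times the summed level of both alpha subunits.

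**Figure D2:**
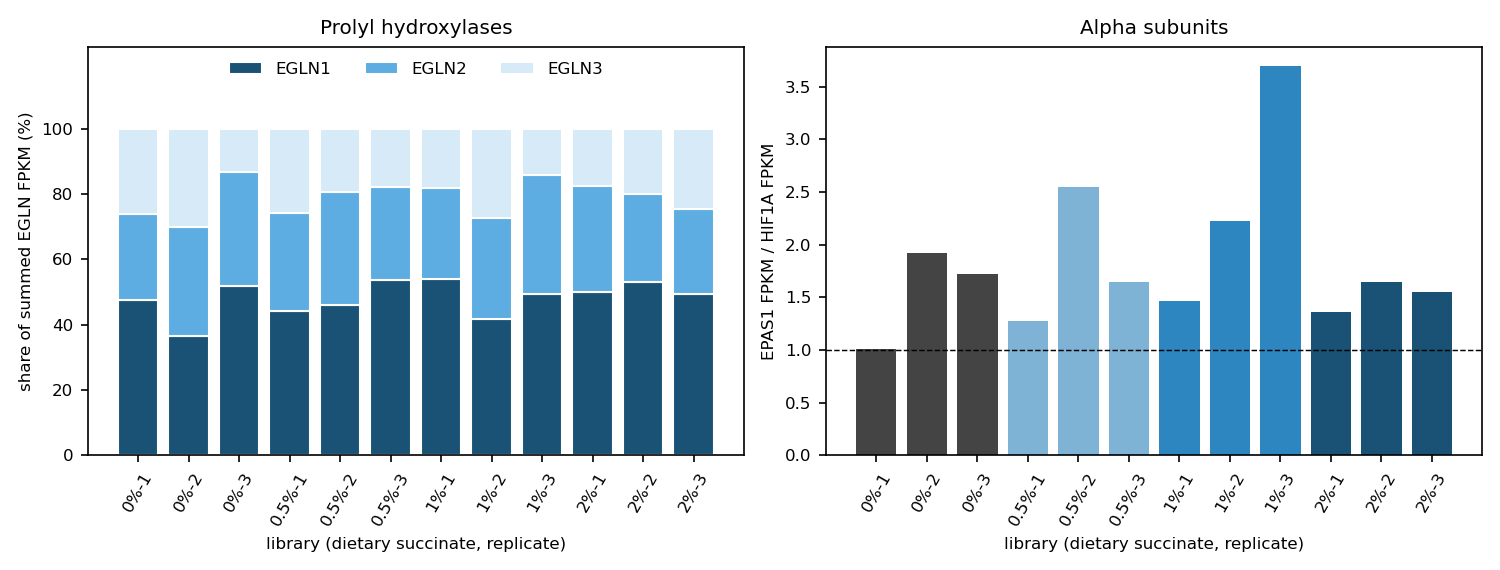
Left, percent of the summed FPKM of the prolyl hydroxylases held by each in every library; right, EPAS1 FPKM over HIF1A FPKM, with a dashed line at 1. EGLN1 holds the largest share in all 12 libraries, and the ratio of alpha subunits runs from 1.01 to 3.69.

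HIF1AN, the asparaginyl hydroxylase, lies on chromosome 22 (21186122 to 21200647, plus strand) and was steady like EGLN2. Control libraries gave 15.7, 14.1 and 16.04 FPKM and 0.5% libraries 15.7, 11.3 and 13.8. The 1% libraries gave 14.7, 15.1 and 17.1 and the 2% libraries 15.6, 17.98 and 15.4. Replicate 2 of the 0.5% diet was the lowest, and the groups overlapped, except at 1% with the gene length trend removed, where all 3 libraries were below the controls. In FPKM 10.7% of tested genes were lower at 1% without overlap, and the share in that setting was not counted. The differences were -0.17, 0.03 and 0.09 (SE 0.15 each), with adjusted p of 0.890, 0.939 and 0.999 in limma.

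VHL, the substrate receptor of the ubiquitin ligase that marks hydroxylated alpha subunits, was lower in every succinate library than in every control. It lies on chromosome 19 (16686431 to 16693043, minus strand). The controls measured 7.93, 8.52 and 8.56 FPKM and the 0.5% libraries 6.17, 7.06 and 5.66. The 1% libraries measured 6.54, 4.74 and 3.71 and the 2% libraries 7.26, 6.005 and 6.83. The highest succinate library, replicate 1 of the 2% diet, was below the lowest control. Group means were 8.34 ± 0.354 in the control, 6.30 ± 0.707 at 0.5%, 5.00 ± 1.43 at 1% and 6.70 ± 0.637 at 2% (SD, n = 3), so the order did not follow the dose.

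At 1% the VHL difference was -0.66 (SE 0.18, 95% interval -1.05 to -0.28), with an adjusted p of 0.197 in limma. At 0.5% it was -0.36 (SE 0.18, adjusted p = 0.883) and at 2% it was -0.28 (SE 0.18, adjusted p = 0.999). A comparison of the 3 succinate diets together with the control, added after these values were seen, gave -0.44 (SE 0.14) with an adjusted p of 0.760; VHL was among the 4.51% of tested genes lower there at an unadjusted p under 0.05. Levels without overlap, counted after the values were seen, occurred in the lower direction in 10.4% of tested genes at 0.5%, 10.7% at 1% and 6.75% at 2%. All 9 succinate libraries lay below all 3 controls in 1.08% of tested genes, 131 genes with VHL among them. The VHL groups stayed apart with TMM scaling and with the gene length trend removed, and overlapped at 0.5% under quantile normalization.

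The 1% value of VHL rested on the libraries that stood apart. Without replicates 2 and 3 of the 1% diet it was -0.31 (adjusted p = 0.997), the lone library left being assumed to vary like the others, and with the gene length trend removed it was -0.57 (adjusted p = 0.383). Without replicate 1 of the 1% diet, which leaves only those replicates, it was -0.84 with an adjusted p of 0.00653, in a fit that called 2634 genes. VHL was also the scarcest member, with as few as 156 reads in a library, where counting error alone is 8.01% of the level. Summed macrophage markers, 9 of 9 tested, were 140 to 234 FPKM in the controls, 59.0 to 142 at 0.5%, 112 to 126 at 1% and 106 to 120 at 2%, and their part in the VHL levels was not tested.

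VEGFA, on chromosome 20 (17279780 to 17295199, plus strand), was highest in the 2% libraries. It measured 16.7, 13.0 and 17.7 FPKM in the controls and 13.3, 16.7 and 13.4 with 0.5% succinate. With 1% it measured 17.3, 19.4 and 15.4, and with 2% it measured 24.3, 24.7 and 20.4. All 3 libraries of the 2% diet exceeded all 9 others, and the 0.5% and 1% libraries overlapped the controls. Group means were 15.8 ± 2.50, 14.4 ± 1.96, 17.4 ± 2.02 and 23.1 ± 2.39 from the control to the 2% diet (SD, n = 3).

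At 2% the VEGFA difference was 0.53 (SE 0.16, 95% interval 0.18 to 0.89), 1.45-fold on the log2(FPKM + 1) scale, with an adjusted p of 0.999 in limma. The slope was 0.30 per percent of succinate (SE 0.08), also with an adjusted p near 1, and VEGFA was among the 1.86% of tested genes with a positive slope at an unadjusted p under 0.05. The 2% libraries were above the controls without overlap in 7.43% of tested genes and above all other 9 libraries in 0.513%, 62 genes with VEGFA among them. Under quantile normalization VEGFA of the 2% diet still exceeded the controls but overlapped the other libraries. Over 25 alternatives the 2% difference ran from 0.40 to 0.62, with a lowest adjusted p of 0.0908 under library weights. Adipocyte markers, 8 of 8 tested, summed to 109 to 927 FPKM in the 2% libraries and 106 to 731 in the controls, and their part in the VEGFA levels was not tested.

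BNIP3 lies on chromosome 22 (50239839 to 50250390, minus strand). It measured 44.0, 37.2 and 47.4 FPKM in the controls and 50.8, 58.2 and 39.3 with 0.5% succinate. With 1% it measured 41.3, 25.2 and 43.5, and with 2% it measured 39.1, 37.1 and 31.4. Although VEGFA was highest at 2%, BNIP3 was not, and each succinate group overlapped the controls. The differences were 0.19, -0.25 and -0.25 (SE 0.22 each), with adjusted p of 0.896, 0.514 and 0.999 in limma.

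**Figure D3:**
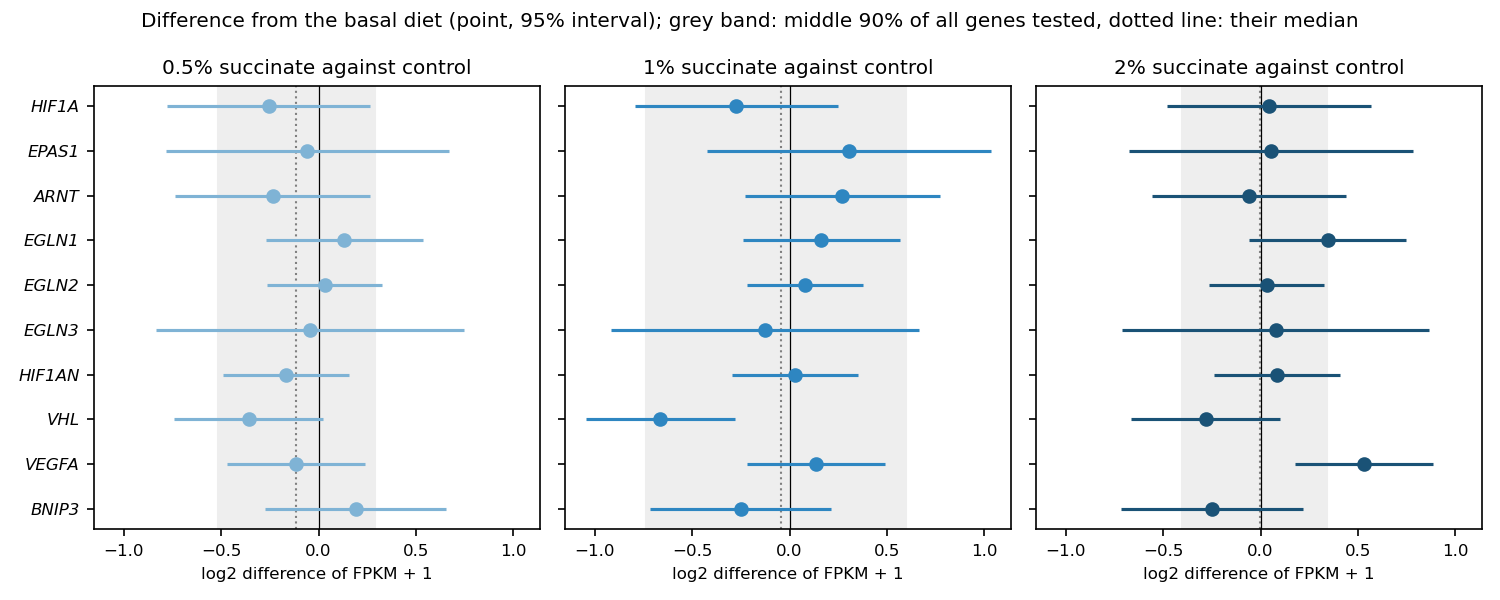
Log2 difference of FPKM + 1 from the control for the 10 genes at each dose, as points with 95% intervals; the grey band holds the middle 90% of all 12095 genes tested and the dotted line is their median. Intervals of VHL at 1% and VEGFA at 2% leave out 0, and all others include it.

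As a group the 10 genes sat close to the body of the transcriptome. Of the 10, 3 were higher and 7 lower at 0.5%, with a median log2 difference of -0.09 beside -0.11 over all tested genes. At 1% 6 were higher, with a median of 0.05 beside -0.04, and at 2% 7 were higher, with a median of 0.05 beside 0.00. The median of all genes at 0.5% depended on scaling, moving from -0.11 to -0.01 with TMM, so a member difference near -0.1 at that dose is at the common level.

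Wider HIF lists were counted beside them. Machinery partners, such as the elongins and cullin of the VHL ligase, the co-activators and the chaperones of HIF1A, numbered 20, of which 18 were tested and ARNT2 and CITED4 were too low. None of the 18 passed the test at any dose. At 0.5% 3 were higher and 15 lower (median -0.07), beside 70.6% of all tested genes lower, and with TMM scaling 10 were higher and 8 lower. At 1% 5 were higher and 13 lower with a median of -0.31, beside 54.6% of all genes lower, and 9 had an unadjusted p under 0.05, beside 19.4% of all genes; the median was -0.12 with the gene length trend removed and -0.16 without replicates 2 and 3 of the 1% diet. At 2% 5 were higher and 13 lower (median -0.10), beside 50.7% of all genes lower.

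Several partners with larger differences at 1% depended in part on gene length or on the libraries that stood apart. ELOB, which encodes elongin B of the VHL ligase and is 440 bases long here, measured 83.0 ± 24.3 FPKM at 1% and 154 ± 36.9 in the control, a difference of -0.90 (SE 0.25, adjusted p = 0.197 in limma) that was -0.22 with the length trend removed. EP300, a co-activator of HIF that is 8772 bases long, measured 15.99 ± 7.94 and 7.22 ± 2.15, a difference of 0.96 (SE 0.31, adjusted p = 0.198) that was 0.13 without replicates 2 and 3. CREBBP, its close relative, measured 21.5 ± 10.5 and 10.9 ± 2.20, a difference of 0.81 that was 0.01 without them. For these 3 genes the difference shrank under either change, but to unlike degrees. With the length trend removed it was still 0.68 for EP300 and 0.54 for CREBBP. Without replicates 2 and 3 it was still -0.45 for ELOB. COMMD1, which binds HIF1A, measured 29.2 ± 11.5 at 0.5%, 18.7 ± 8.61 at 1%, 24.4 ± 1.13 at 2% and 33.3 ± 4.75 in the control. Its difference at 1% was -0.87 (SE 0.29, adjusted p = 0.199) and was -0.21 without replicates 2 and 3; at 2% it was -0.43 (adjusted p = 0.999).

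SIAH1, a ubiquitin ligase that acts on EGLN enzymes, was lower in all 9 succinate libraries than in the controls, as VHL was; 131 genes, 1.08% of those tested, met that description. It ranged from 7.26 to 7.92 FPKM in the controls, 5.52 to 6.24 at 0.5%, 3.65 to 6.70 at 1% and 5.17 to 6.38 at 2%. The differences were -0.36, -0.53 and -0.35 (SE 0.18 each), with adjusted p of 0.883, 0.199 and 0.999 in limma. At 1% it was -0.74 with the length trend removed and -0.17 without replicates 2 and 3.

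Other HIF targets had no common direction across the doses. Of 45 listed, 40 were tested; SLC16A3, HK2, CA12 and EPO were among those too low, and EPO was listed at 0 in every library. None passed the test at any dose. At 0.5% 16 were higher and 24 lower (median -0.08), beside 70.6% of all genes lower, and with TMM scaling 23 were higher and 17 lower. At 1% 17 were higher and 23 lower (median -0.09), beside 54.6% of all genes lower. Without replicates 2 and 3 of that diet 22 were higher and 18 lower, beside 57.2% of all genes lower. At 2% 26 were higher and 14 lower, beside 49.3% of all genes higher, with a median of 0.06 beside 0.00 over all genes. With TMM scaling 27 were higher and 13 lower at that dose. Whether the list shifted as a whole was not tested.

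Single targets went in opposite directions. ADM, the vasodilator peptide adrenomedullin, measured 45.2, 39.4 and 58.2 FPKM in the controls and 21.1, 20.8 and 26.1 at 1%. These groups did not overlap, like 10.7% of tested genes in the lower direction at 1%. The ADM difference of -1.03 at 1% (SE 0.31, adjusted p = 0.197 in limma) was -0.79 with the length trend removed and -1.12 without replicates 2 and 3. The latter sets a lone library, replicate 1 at 21.1 FPKM, against the controls, and 1 library cannot show its own spread. ADM averaged 33.9 ± 16.2 at 0.5% and 33.0 ± 7.54 at 2%, both overlapping the controls. AK4, a mitochondrial adenylate kinase, went the other way, with 5.16, 5.66 and 6.21 in the controls, 9.41, 8.86 and 8.72 at 1% and 7.05, 8.95 and 7.13 at 2%; at 0.5% it averaged 6.66 ± 1.72 and overlapped. Neither of these doses overlapped the controls, like 7.14% of tested genes in the higher direction at 1% and 7.43% at 2%. The AK4 differences were 0.58 (adjusted p = 0.197 in limma) at 1% and 0.38 (adjusted p = 0.999 in limma) at 2%.

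CA9, a cell-surface carbonic anhydrase, was scarce, at 1.34 ± 0.826 FPKM in the control, 3.00 ± 1.17 at 0.5%, 3.37 ± 1.02 at 1% and 3.47 ± 1.76 at 2%. Its differences were 0.79, 0.94 and 0.93 (SE 0.34 each), with adjusted p of 0.883, 0.206 and 0.999 in limma. At 1% the groups did not overlap, like 7.14% of tested genes in the higher direction. Without replicates 2 and 3 the 1% difference of CA9 was 0.57. PGK1, a glycolytic kinase, measured 31.6 ± 1.43 at 0.5%, 33.1 ± 5.58 at 1%, 39.3 ± 3.97 at 2% and 29.6 ± 5.78 in the control (adjusted p = 0.999). FAM162A, a mitochondrial protein encoded by a gene of 664 bases, measured 33.1 ± 13.7 at 1% and 58.2 ± 7.38 in the control, and its difference of -0.87 was -0.32 with the length trend removed. The chemokine receptor gene CXCR4 measured 3.09 ± 0.164 at 0.5% against 1.72 ± 0.181 in the control, without overlap, like 1.76% of tested genes, and overlapped the controls at 1% (1.95 ± 1.44) and 2% (3.10 ± 1.62). ANKRD37 differed in sign between doses, with 2.41 ± 0.351 at 0.5%, 1.03 ± 0.360 at 1%, 1.49 ± 0.268 at 2% and 1.64 ± 0.524 in the control. The collagen cross-linking enzyme gene LOX measured 15.1 ± 6.77 at 0.5%, 20.01 ± 6.84 at 1%, 18.6 ± 3.87 at 2% and 23.4 ± 4.37 in the control. None of these 3 genes passed the test, and at 0.5% each had an adjusted p of 0.883.

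VEGFA's relatives and receptors did not share its level at 2%. All 9 listed genes (VEGFB, VEGFC, VEGFD, PGF, FLT1, KDR, FLT4, NRP1 and NRP2) were tested and none passed. At 2% 4 were higher and 5 lower, with a median of -0.06. At 0.5% 1 was higher and 8 lower, beside 70.6% of all genes lower, with a median of -0.24, or -0.13 with TMM scaling. At 1% 5 were higher and 4 lower, which became 2 and 7 without replicates 2 and 3. By level over the 12 libraries, the ligand VEGFB averaged 45.4 ± 8.50 FPKM and the co-receptor NRP2 22.3 ± 7.11 (SD, n = 12). The co-receptor NRP1 averaged 13.0 ± 3.89, and KDR and FLT1, the main VEGF receptors of endothelium, 5.22 ± 1.68 and 2.28 ± 0.720. The ligands VEGFC, VEGFD and PGF were as scarce as FLT1, at 2.73 ± 1.33, 2.62 ± 1.22 and 1.82 ± 0.377.

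**Figure D4:**
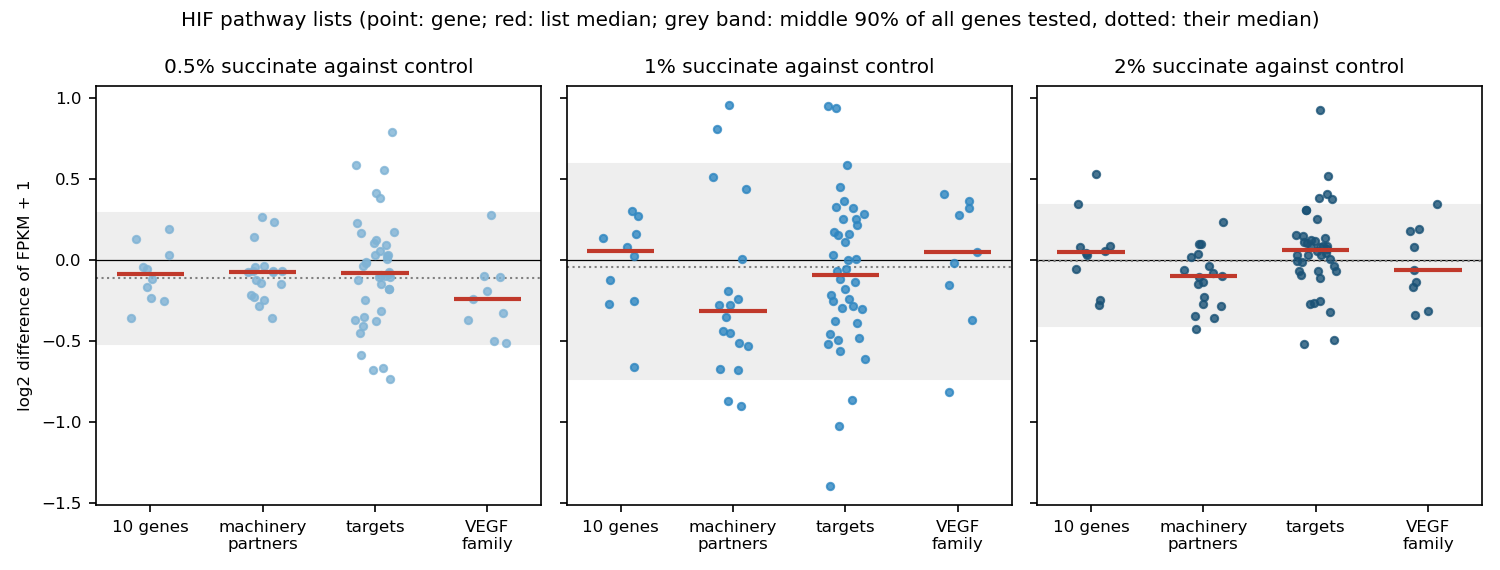
Log2 difference of FPKM + 1 from the control for each tested gene of 4 lists at each dose; red bars are list medians and the grey band holds the middle 90% of all genes tested. The partner list has its lowest median at 1%, -0.31, where the grey band is also widest.

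Variation between libraries was then compared among the 10 genes. Of 45 pairs, none had an adjusted p under 0.05 and 3 had an unadjusted p under 0.05 (permutation test on Pearson's r, n = 12). In the main values the strongest relation joined EPAS1 and EGLN3, with r = -0.71 (permutation p = 0.00717, adjusted p = 0.323) and Spearman's rho = -0.73 (permutation p = 0.00958, adjusted p = 0.265). It was r = -0.60 without the 2 libraries farthest from the EPAS1 median, -0.77 with TMM scaling (adjusted p = 0.0761) and -0.69 without replicates 2 and 3 of the 1% diet. Other pairs led in 2 of the alternatives. With the gene length trend removed, HIF1A and EGLN2 had r = -0.81 (permutation test, adjusted p = 0.072), beside -0.76 for EPAS1 and EGLN3. In the main values HIF1A and EGLN2 had r = -0.55 (rho = -0.69). Without replicates 2 and 3 of the 1% diet, HIF1A and ARNT had r = 0.78, beside 0.36 in the main values. ARNT and HIF1AN, with r = 0.67 (rho = 0.41), rested on 2 libraries, since r was -0.06 without them. EPAS1 and ARNT, with r = 0.61 (rho = 0.64), gave 0.34 without the 2 farthest. HIF1A and its hydroxylase EGLN1 had r = -0.03, and VHL and VEGFA had r = 0.02.

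**Figure D5:**
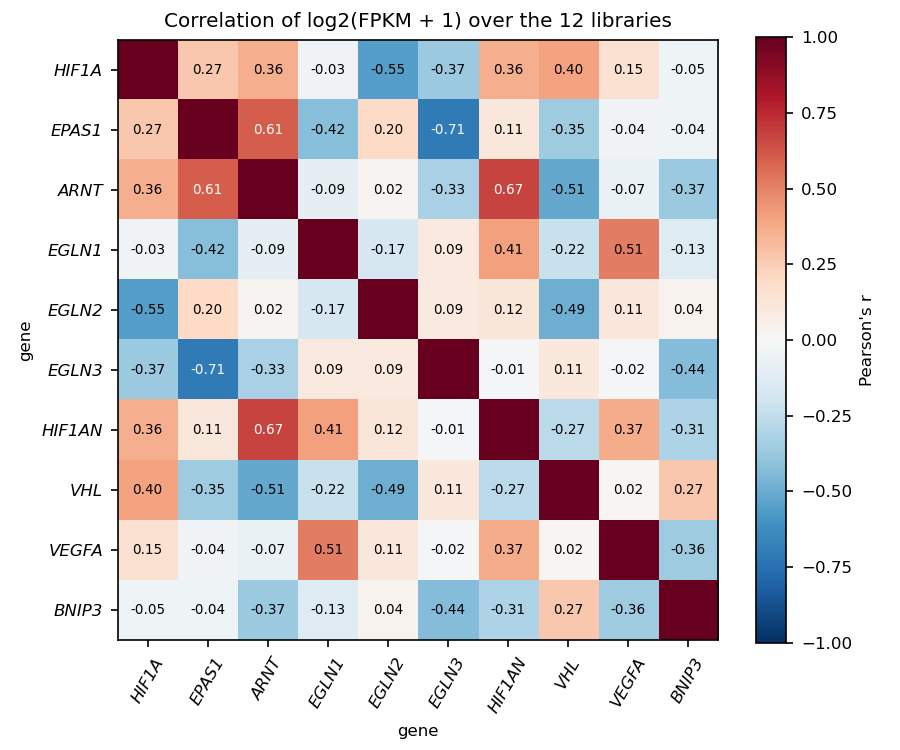
Pearson's r of log2(FPKM + 1) over the 12 libraries for each pair of the 10 genes, in colour and as printed values. The most negative pair is EPAS1 with EGLN3 at -0.71 and the most positive is ARNT with HIF1AN at 0.67; no pair passed adjustment over 45.

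Across 7460 genes with a symbol and a mean of at least 5 FPKM, those most like each member over the 12 libraries were taken by Pearson's r, as a description. With so many genes and 12 points high values are common, and the libraries differed in depth and in their relation to gene length. HIF1A was most like MAN1A1 (r = 0.91), CDC42SE2 and CLCC1. EPAS1 was most like ABCF3 (0.93), ENG (0.93), which encodes the endothelial receptor endoglin, and MAP3K11. For ARNT these were LRIG3 (0.97), MBD1 and C3H2orf68, and for EGLN1 FAM214A (0.93), HPS3 and PDHX. Genes near EGLN2 included HSF1 (0.90) and CSNK1G2, and EGLN3, the least matched, was nearest to SPTSSB (0.80), RAI14 and ELAC1. HIF1AN was nearest to ALG2 (0.96), TADA2B and FER, but r with ALG2 was 0.01 and with TADA2B 0.50 once the gene length trend was removed. In that setting r also fell to 0.53 for ARNT with MBD1 and for EGLN3 with ELAC1, and to 0.69 for EPAS1 with ABCF3. The other named pairs changed less. VHL was nearest to SPCS1 (0.95), STEEP1 and ZNF22, VEGFA to GNL3L (0.89), UBR7 and NSMCE4A, and BNIP3 to MSRB1 (0.87), MPST and SPRING1.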

How the data were processed

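Total RNA of 12 libraries was sequenced. The authors deposited FPKM values per gene; per the submitters' processing notes, cutadapt 1.15, HISAT2 2.1.0 and HTSeq 0.9.1 were used. Genome build and strand setting: not given in the sources used here. Multiplying by gene length gave whole reads within 0.01 of a read, and so the depth. Chromosomes came from a RefSeq gene table holding 98.2% of the gene IDs.

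Values were transformed as log2(FPKM + 1), which understates changes of low genes. Genes reaching 1 FPKM in 3 or more libraries were fitted by limma-trend (limma 3.58.1, R 4.3.3), robust, all 12 libraries together, two-sided, with Benjamini-Hochberg adjustment over 12095 genes and a threshold of 0.05. The fit was also run on simulated reads. These had no gene length trend and no libraries that stood apart, so that run does not cover these features of the data. Exact tests of single genes were left out, since groups of 3 allow no p below 0.1. Deviations of same-numbered libraries correlated by over 0.1 in all 3 pairs of the control and 0.5% diets (r = 0.227, 0.232 and 0.166) and in no other 2 diets; fits with a replicate block were alternatives and called no member. Correlations used 100000 permutations (scipy 1.17.1).

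Named list genes were the 3 per direction and dose with the smallest p; some genes are not reported here. Members and lists were chosen with earlier results of these data known. Alternatives changed scaling, pseudocount, filter, weights and libraries.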

Additional observations from a re-analysis of the deposited data

How the results depend on the processing

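Over 1440 recalculations of 60 member results, 1412 stayed on the same side of the threshold and, for differences, within 1 SE of the reported value. Of the rest, 26 moved further and 2 passed the threshold. No member was called as reported, so there was no call to reverse. Signs of small differences did change, as in 10 of 25 alternatives for EGLN3 at 0.5%. For ARNT with the 3 succinate diets together it was 11 of 23. The sign for VHL changed at no dose. The F values among the 4 diets, counted in these, have no SE, so the limit of 1 SE does not apply to them. Both results that passed were VHL without replicate 1 of the 1% diet, at 1% (-0.84, adjusted p = 0.00653) and among the 4 diets (F = 10.2, adjusted p = 0.0296). Genes called over the whole table, 0 as reported in every comparison, ranged when 1 library was left out from 0 to 2634 at 1% (1 without replicate 2 of the 2% diet), from 0 to 1 at 2%, from 0 to 1344 among the 4 diets and from 0 to 1 for the 3 succinate diets together. The 2634 and 1344 came without replicate 1 of the 1% diet. Library weights gave 64 genes at 2%, 22 for the slope and 2 among the 4 diets, though their estimate did not converge. Fitting 2 diets alone gave 5 at 2%, and leaving out both 1% libraries that stood apart gave 1 at 2% and 1 among the 4 diets. The cause was not tested. With a replicate block over all 12 libraries, 0 genes were called in each comparison. With a replicate block in fits of 2 diets alone, added after the data were seen, 0 were called at 0.5%, 3 at 1% and 0 at 2%, none of them a member. Outside the control and 0.5% diets, no 2 diets had all 3 same-numbered pairs over 0.1. Control with 1% had r = 0.258 and 0.207 for replicates 1 and 3, and -0.0191 for replicate 2. Control with 2% had r = -0.334, -0.193 and -0.203. What same-numbered libraries share beyond the number was not tested. The count models planned as alternatives (edgeR, DESeq2) were not run, because the deposited unit is FPKM.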
